A study of Danio rerio with 4 samples.

Results

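Chemokines are small secreted proteins that set the direction in which cells move, and their receptors are membrane proteins that signal through G proteins. The ligands are classed by cysteines near the amino end, which stand side by side in CC chemokines and are parted by a single residue in CXC chemokines. Atypical receptors bind chemokines and take them up without signalling through G proteins, which lowers the ligand around the cell. In zebrafish this system steers leukocytes, and during development it also steers germ cells, the lateral line primordium and growing vessels. Whether such movements were under way in the larvae sequenced here was not tested. The 29 genes described here are those whose symbol begins with ccl, cxcl, ccr, cxcr, xcr or ackr followed by a digit, out of 19143 genes in the authors' deposited table. They comprise 9 CC ligands, 10 CXC ligands, 6 receptors, all of the cxcr or ccr type, and 4 atypical receptors.

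The RNA of entire larvae was sequenced at 4 days post-fertilization (dpf). There were 2 pools of homozygous *nlrc3l* mutants carrying the st73 allele and 2 pools of their siblings. The sibling pools mixed heterozygotes with wild-types, and the study describes no immune challenge of these larvae. The numbers 10 and 12 in the library titles, which match the number of larvae that the study's methods give for a pool, occur once in each genotype. Before pooling, larvae had been sorted by staining with neutral red, which accumulates in microglia, into mutants without microglia and siblings with them. The paper's staining method bathes live larvae in the dye together with PTU, which blocks pigment. Genotypes were then checked by PCR and restriction digest before the libraries were made. The study used these mutants of a NOD-like receptor gene to ask whether inflammation set off by macrophages alters swimming behaviour, and the RNA-seq served to describe their immune state.

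The value used for each gene is the authors' mean of normalized counts over all 4 libraries (baseMean), in which mutants and siblings are averaged together. It has no error, and it does not say in which genotype a gene was higher. The mutant against sibling contrast was available only as the authors' own fold changes and p-values, which were not used, so no genotype comparison is given. For *nlrc3l* itself (ENSDARG00000099936) the authors' mean was 42.8 normalized counts, and whether it differed between the genotypes was not tested. The mean is also not divided by transcript length, so values of different genes are amounts of reads and not an order of transcript abundance. The 19143 means sum to 8721330 normalized counts, with a median of 126 and a lowest value of 9.18, so genes under some minimum had been left out. Depth of each library is unknown from these values.

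Together the 29 genes held 3284 normalized counts, or 0.0377% of the table. Their median was 47.5, against 126 over all genes, and 6 of the 29 lay above the median of all genes. These 6 were *cxcl12a*, *ackr3b*, *cxcl14*, *ccl25b*, *ccl34a.4* and *cxcl12b*. At the other end, 6 members were under 20 normalized counts, namely *ccl34b.1*, *ccl38.6*, *cxcl8b.3*, *ackr3a*, *ackr4a* and *ccr6a*. The last 2 of these were within 1 normalized count of the lowest value in the table. Genes with lower means were left out, so the figures for each group describe the members above that limit.

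**Figure D1:**
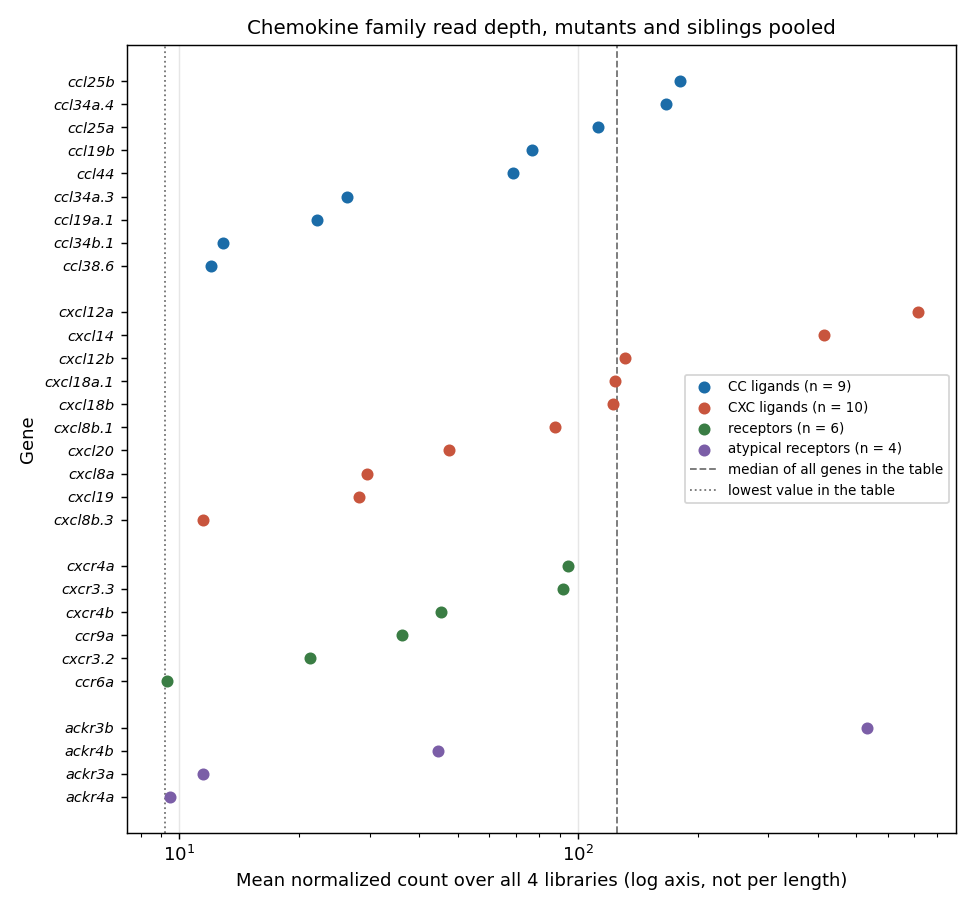
Mean normalized count of each of the 29 genes over all 4 libraries (horizontal log axis, not per length), as the authors' mean with mutants and siblings pooled, ordered within CC ligands, CXC ligands, receptors and atypical receptors. The points run from 9.32 for *ccr6a* to 714 for *cxcl12a*, and 23 of them lie at or below the dashed line at the median of all genes, 126, while the dotted line marks the lowest value in the table, 9.18.

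CXC ligands took up most of the family's reads, with a sum of 1711 normalized counts over 10 genes and a median of 105. The gene *cxcl12a* (ENSDARG00000037116) encodes the ligand that guides germ cells and the lateral line primordium in zebrafish. Its mean was 714 normalized counts, above that of 89.6% of all genes, and it made up 41.8% of the reads of the CXC ligands. The second copy, *cxcl12b* (ENSDARG00000055100), which acts on endoderm and on growing vessels, had 131 normalized counts. For *cxcl14* (ENSDARG00000056627), a conserved chemokine of epithelia and brain, the mean was 415 normalized counts, above that of 80.8% of all genes. The other 7 CXC ligands all lay at or below the median of all genes.

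The neutrophil attractants of the Cxcl8 type were read at lower depth. For *cxcl8b.1* (ENSDARG00000102299) the authors' mean was 87.7 normalized counts, for *cxcl8a* (ENSDARG00000104795) it was 29.6, and for *cxcl8b.3* (ENSDARG00000099169) it was 11.5. These lay above 40.3%, 16.7% and 2.56% of all genes in the table. The related *cxcl18b* (ENSDARG00000075045), which attracts neutrophils in zebrafish infection, had 122 normalized counts, and *cxcl18a.1* (ENSDARG00000111840) had 124. The ligands *cxcl20* (ENSDARG00000075163) and *cxcl19* (ENSDARG00000102776), had 47.5 and 28.2 normalized counts. How far the counting split reads between near-identical copies of a ligand was not tested, so the values of single copies are uncertain. Cxcr1 and Cxcr2, receptors of the Cxcl8 type ligands, were not analysed here.

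The 9 CC ligands summed to 678 normalized counts, with a median of 68.7. In fish the thymus makes Ccl25, which draws in precursors of T cells, and both of its copies had a row. For *ccl25b* (ENSDARG00000070873) the mean was 181 normalized counts, the highest of the CC ligands as an amount of reads, and for *ccl25a* (ENSDARG00000115610) it was 113. Ligands named after mammalian CCL19, which guides cells that carry CCR7, included *ccl19b* (ENSDARG00000039351) with 76.6 normalized counts and *ccl19a.1* (ENSDARG00000058389) with 22.1. Among ligands with no simple mammalian counterpart, *ccl34a.4* (ENSDARG00000090873) had 166 normalized counts, *ccl44* (ENSDARG00000074772) had 68.7 and *ccl34a.3* (ENSDARG00000094983) had 26.3. The deposited means of *ccl34b.1* (ENSDARG00000093608), used elsewhere as a marker of a subset of zebrafish microglia, and *ccl38.6* (ENSDARG00000041923) were 12.9 and 12.0 normalized counts. Neither was above more than 4.02% of all genes. For *ccl34b.1* the mean averages pools that had been sorted to differ in microglia.

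None of the 6 signalling receptors lay above the median of all genes, and their sum was 299 normalized counts. The copies of the Cxcl12 receptor had 94.6 normalized counts for *cxcr4a* (ENSDARG00000057633) and 45.2 for *cxcr4b* (ENSDARG00000041959). In zebrafish Cxcr4b is the form that moves germ cells and the lateral line primordium, while Cxcr4a acts in endoderm and vessels. Of the Cxcr3 receptors, *cxcr3.3* (ENSDARG00000070669) had 91.9 normalized counts and *cxcr3.2* (ENSDARG00000041041) had 21.2. In zebrafish macrophages Cxcr3.2 promotes recruitment and Cxcr3.3 works against it. The Ccl25 receptor *ccr9a* (ENSDARG00000055186) had 36.3 normalized counts. The lowest mean of the receptors was that of *ccr6a* (ENSDARG00000087474), named after the mammalian receptor of CCL20, with 9.32 normalized counts.

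Among the 4 atypical receptors *ackr3b* (ENSDARG00000058179) stood apart, with a mean of 531 normalized counts, above that of 85.4% of all genes. It made up 89.0% of the reads of this group. Ackr3b, also known as Cxcr7b, removes Cxcl12a from the path of migrating cells in zebrafish. The second copy, *ackr3a* (ENSDARG00000062478), had 11.5 normalized counts. The other pair, *ackr4b* (ENSDARG00000040133) and *ackr4a* (ENSDARG00000078729), had 44.6 and 9.49 normalized counts. Mammalian ACKR4 takes up CCL19, CCL21 and CCL25. The median place of the group depended on its least read members. Among all genes it was 13.6% over all 4, the lowest of the 4 groups. With only genes at 20 or more normalized counts kept, 2 members were left. Their median place among those genes was 50.0%, the highest of the groups under the same limit. These 2, *ackr3b* and *ackr4b*, lay far apart, above 85.4% and 24.6% of all genes. The 50.0% refers to the smaller set of genes and is the place of neither.

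**Figure D2:**
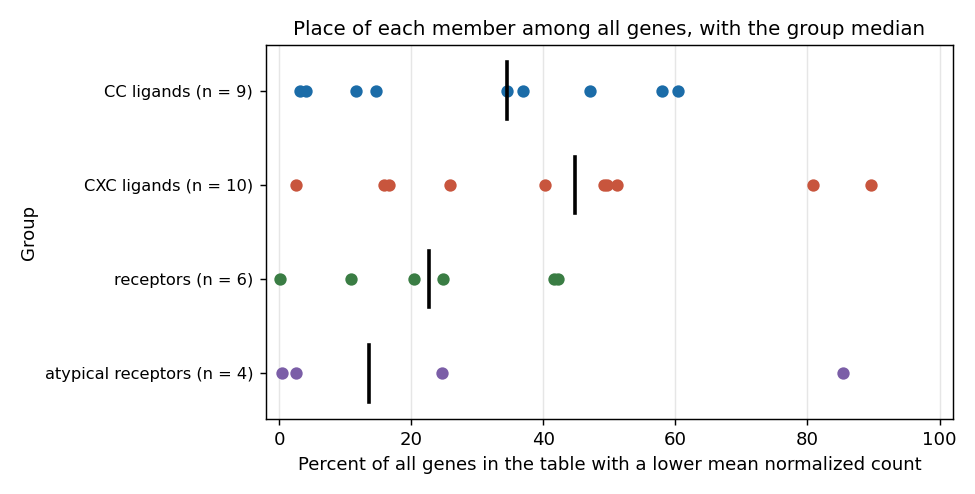
Place of each of the 29 genes among the 19143 genes of the table, as the percent of genes with a lower mean normalized count (horizontal axis), by group, with a black bar at each group's median. The medians are 34.5 for CC ligands, 44.7 for CXC ligands, 22.7 for receptors and 13.6 for atypical receptors (50.0 for the 2 atypical receptors at 20 or more normalized counts, among genes at that level), and *cxcl12a*, *cxcl14* and *ackr3b* are the 3 genes above 80% of the table.

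Set side by side by ligand and receptor, the Cxcl12 system had a row for every gene, with 714 and 131 normalized counts for the ligands *cxcl12a* and *cxcl12b*, 94.6 and 45.2 for the receptors *cxcr4a* and *cxcr4b*, and 531 and 11.5 for the atypical receptors *ackr3b* and *ackr3a*. The Ccl25 system was covered by both ligands and by *ccr9a*, while *ccr9b* was not analysed here. The atypical receptors *ackr4b* and *ackr4a* are copies of the gene whose mammalian product takes up CCL25 and CCL19. For Ccl19 the ligands and these atypical receptors had a row, while *ccr7* was not analysed here. For Cxcl8 and Cxcl18 only the ligands, and for Cxcr3 and Ccr6 only receptors, are among the 29 genes.

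By symbol, the name rule finds 80 genes in the RefSeq annotation of GRCz12tu, of which 29 had a row and 51 were not analysed here. Coverage differed by class. All 4 atypical receptors had a row, against 10 of 18 CXC ligands, 9 of 33 CC ligands and 6 of 25 receptors. The counts were made on the older build GRCz10. A gene missing from its annotation, named otherwise there, or left out for a low mean would have no matching row. These cases were not told apart. Gene order in GRCz12tu places several members together, counting only protein-coding genes. No gene stands between *ccl34a.3* and *ccl34a.4*, between *cxcr3.2* and *cxcr3.3*, or between *cxcl8b.3* and either *cxcl19* or *cxcl8b.1*. A single gene parts *cxcl12a* from *cxcl18a.1*, and 2 genes part *ccl25b* from *ccl44*. In some neighbouring copies the values differed, with 26.3 and 166 normalized counts for *ccl34a.3* and *ccl34a.4*, and 11.5 and 87.7 for *cxcl8b.3* and *cxcl8b.1*. These values are not per length, and how the counting split reads between copies was not tested.

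Genes that act after the receptors had larger amounts of reads in these whole larvae. Of 40 listed symbols of chemokine receptor signalling, 34 had a row, on 35 identifiers since *lyn* stands on 2. Of these rows 22 lay above the median of all genes. Their median was 211 normalized counts, from 12.8 for *pik3r5* to 2506 for *gnb1a*. The genes at the top of this list, such as the G protein subunit genes *gnb1a* and *gnb1b* and the GTPase gene *cdc42*, serve many receptors in most cells. Among members used in leukocytes, *itgb2*, an integrin subunit of leukocytes, had 47.9 normalized counts. The gene *pik3cg*, for a kinase that responds to G proteins, had 67.4, and *hck*, for a myeloid kinase, had 20.05. The GTPase gene *rac2*, used in neutrophil movement, had 351. Low values were not confined to genes of leukocytes, with 95.7 for *gnai3*, 36.8 for *arrb1* and 13.5 for *grk6*. Of 10 related symbols outside the name rule only *cmklr1*, a receptor for the attractant chemerin, had a row, with 26.0 normalized counts. Symbols of both lists were matched exactly, so another name of a gene with a row was counted as without one.

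The label of whole larvae was checked on markers of 8 tissues. All listed genes of skin, muscle, liver, neurons, intestine, lens and endothelium had means above the median of all genes, from 181 normalized counts for *kdrl* to 69336 for *krt4*. Of 3 exocrine pancreas genes 2 lay above it, and *ela2l* had 68.2 normalized counts. All 5 neutrophil markers had a row, and *mmp13a* stands on 2 identifiers, with 219 and 172.5 normalized counts. Their values ran from 57.5 normalized counts for *ncf1* to 246 for *lyz*, and each of them but *ncf1* lay above the median of all genes. All 4 macrophage markers had a row as well, from 14.6 to 49.4 normalized counts, and none lay above that median. Of 4 microglia markers 3 had a row. Of these, *mrc1b* and *havcr1* had 57.2 and 32.2 normalized counts, both below that median, while *apoeb*, at 7244, is made by other cells as well. These means average pools that had been sorted to differ in microglia. Of 3 markers of T cells and the thymus only *rag1* had a row, with 13.4 normalized counts. In whole larvae, fewer cells of a type and less RNA per cell cannot be told apart.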

How the data were processed

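RNA-seq was carried out by the authors on 4 libraries of pooled whole larvae, 2 of *nlrc3l* mutants and 2 of siblings. The kit was stranded, and whether the counting used strand is not given in the sources used here. The paper's methods name FastQC, Trimmomatic, HISAT2 and DESeq2, and the submitters' processing notes name featureCounts, Subread 1.5.2, R 3.3.1 and the build GRCz10 (danRer10). The deposited baseMean is a signal. The authors scaled the counts of each library by its size factor and averaged the 4 libraries. The table also holds the authors' own log2 fold changes, their standard errors, statistics and p-values for mutants over siblings, and a second table repeats these for a selection of genes. None of those columns was used, so no test was made, no fold change is given, and nothing is said on the genotypes. No value per library was analysed here, so depth per library, spread between pools and counting error are unknown.

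Members were found by symbol. For each, the percent of genes in the table with a lower mean was computed, and groups were described by sums and medians. The percentile step was tested on simulated data. All members are named with their values. Other lists were fixed in the design, and members and lists were chosen with earlier results of these data known. RefSeq (GRCz12tu) gave symbols and which genes neighbour each other, and placed all 29 members by symbol. No sequences or transcript lengths were at hand, so no level per length was computed. Python 3.11.15, numpy 2.4.6, pandas 2.3.3 and matplotlib 3.10.9 were used.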

Additional observations from a re-analysis of the deposited data

How the results depend on the processing

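These are values without a test, and how far they vary between libraries is unknown. With only genes at 20 or more normalized counts kept, the median percentile was 29.9 for CC ligands, 43.5 for CXC ligands, 16.4 for receptors and 50.0 for atypical receptors, of which 2 were left. Without the member with the highest value, the sums were 497 normalized counts for CC ligands, 997 for CXC ligands, 204 for receptors and 65.6 for atypical receptors. With means in place of medians, the values were 75.3, 171, 49.8 and 149 normalized counts in the same order of groups, so the level of the atypical receptors rests on *ackr3b*. The division by coding length and the merging of near-identical proteins were not run, as lengths and sequences were not used here. The genotype difference and its alternatives, including leaving out a replicate, were not run either. No paired analysis was possible because the result comes from no test and the deposited mean carries no replicate.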
